A study of Rattus norvegicus with 320 samples.

Results

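The mature products of the miR-129 and miR-488 genes were examined in the rat, in brain and in the other organs of the same animals. They are the 5 rows of the count table named rno-miR-129 or rno-miR-488 with any arm or copy suffix, out of 616 miRNAs in all: rno-miR-129-5p, rno-miR-129-1-3p, rno-miR-129-2-3p, rno-miR-488-3p and rno-miR-488-5p, written below without the species prefix. These miRNAs were chosen because they were high in brain, so their levels by organ are given as a description and were not tested. Small RNA libraries came from 16 female and 16 male Fischer 344 rats of 2, 6, 21 and 104 weeks, with 4 rats for each sex and age. Adrenal gland, brain, heart, kidney, liver, lung, skeletal muscle, spleen and thymus were taken from both sexes, and testis or uterus from 1 sex. All rats were untreated as far as the labels say, and the organ samples were whole ground tissue, in which fewer cells of a type and less RNA per cell cannot be told apart. After removal of the 2 samples that the study left out (male brain at week 6, replicate 3, and female spleen at week 104, replicate 4) from the 320 deposited, 31 brain samples and 287 of other organs remained. Total counts were 315550 to 10571766 per sample and 1164462 to 4958803 in brain.

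A miRNA is cut from a hairpin precursor, and either arm of the hairpin (5p or 3p) can be loaded into an Argonaute protein, where bases 2 to 8 from the 5′ end, the seed, pair with target mRNAs. miR-129 has a pair of precursor genes on different chromosomes and is known as a neuronal miRNA that takes part in the scaling of synaptic strength. miR-488 comes from a single gene within Astn1, which encodes astrotactin 1, a neuronal membrane protein of glia-guided migration.

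The mature sequences show which rows can be told apart by their reads. They were read from the count table, were identical to the RefSeq entries for all 5 miRNAs, and are printed 5′ to 3′ with the seed in capitals.
miR-129-5p: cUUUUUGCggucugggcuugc
miR-129-1-3p: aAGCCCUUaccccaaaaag
miR-129-2-3p: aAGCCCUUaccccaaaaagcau
miR-488-3p: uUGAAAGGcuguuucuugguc
miR-488-5p: cCCAGAUAauggcacucucaa

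The seed of both miR-129 3p arms was the same and was found in no other miRNA of the table. The seeds of the other 3 members were each found in 1 miRNA only, the member itself. miR-129-1-3p, with 19 bases, is the start of miR-129-2-3p, with 22 bases. The precursors have the mature arms in capitals and are given because they show that miR-129-5p is the same molecule from either gene.
Mir129-1: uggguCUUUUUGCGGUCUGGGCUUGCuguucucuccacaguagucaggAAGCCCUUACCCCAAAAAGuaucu
Mir129-2: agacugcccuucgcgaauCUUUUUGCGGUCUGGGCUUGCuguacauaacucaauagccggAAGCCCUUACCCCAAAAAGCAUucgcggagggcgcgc
Mir488: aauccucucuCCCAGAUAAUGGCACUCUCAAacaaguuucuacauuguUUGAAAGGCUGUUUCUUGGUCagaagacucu

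In the GRCr8 build of RefSeq, Mir129-1 lies on the plus strand at chr4:58589711-58589782, within the span of the uncharacterised gene LOC120102250. Mir129-2 lies on the minus strand at chr3:100657390-100657486, within the span of no other gene of the table. Mir488 lies on the plus strand at chr13:73216541-73216619, within the span of Astn1. Over the 22 bases of miR-129-2-3p, the Mir129-1 hairpin differs by 1 substitution, C20U, counted from 1 at the 5′ end of the mature miRNA, so the first 19 bases cannot assign a read to a gene.

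The counts of the 3p rows were close to equal. In brain, 49.96% of the 121066 reads on both rows were on miR-129-1-3p, with 47.5 to 51.4% in single samples. The chi-square against an equal split was 0.822 per degree of freedom over the 31 brain samples, about what counting error alone gives. Across the other organs it was 0.722 to 1.67 per degree of freedom, on 37 to 4420 reads per organ. How reads that fit both genes were counted is not given in the sources used here and was not tested. As the rows could not be tied to 1 gene each, they are mostly given below as their sum, called miR-129 3p.

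In brain, miR-129-5p had 1046 ± 137 CPM (SD, n = 31; CPM is the count scaled to the column total), with a lowest value of 866, a median of 1008 and a highest value of 1463 CPM. miR-129 3p had 1231 ± 351 CPM (SD, n = 31) between 674 and 2477 CPM. miR-488-3p, the abundant arm of miR-488, had 888 ± 385 CPM (SD, n = 31) between 539 and 2196 CPM. By mean CPM, miR-129-5p ranked 83 and miR-488-3p ranked 92 among the 616 miRNAs of brain. miR-488-5p was rare, at 10.1 ± 12.3 CPM (SD, n = 31) and between 3 and 112 counts per sample.

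Testis was the organ with the next highest mean for each of the 5 miRNAs. The brain mean was 20.6 times that of testis for miR-129-5p, 18.0 and 20.05 times for the 3p rows, 16.9 times for miR-488-3p and 20.1 times for miR-488-5p. All 5 were thus at least 4-fold above the next organ in brain, the contrast they were selected on. That held for 91 of the 616 miRNAs, or 14.8%. None of the 287 samples of other organs reached the lowest brain sample for miR-129-5p, either 3p row or miR-488-3p. The highest was 96.9 CPM of miR-129-5p in female uterus at week 104, replicate 4, and 128.7 CPM of miR-488-3p in male testis at week 21, replicate 4. For miR-488-5p, 2 samples of other organs were above the lowest brain sample of 1.74 CPM. Its testis mean was 0.503 CPM, with 9 of 16 samples at 0 counts and none above 3 counts. The ratio and the next organ of miR-488-5p thus rest on values at the floor.

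**Figure D1:**
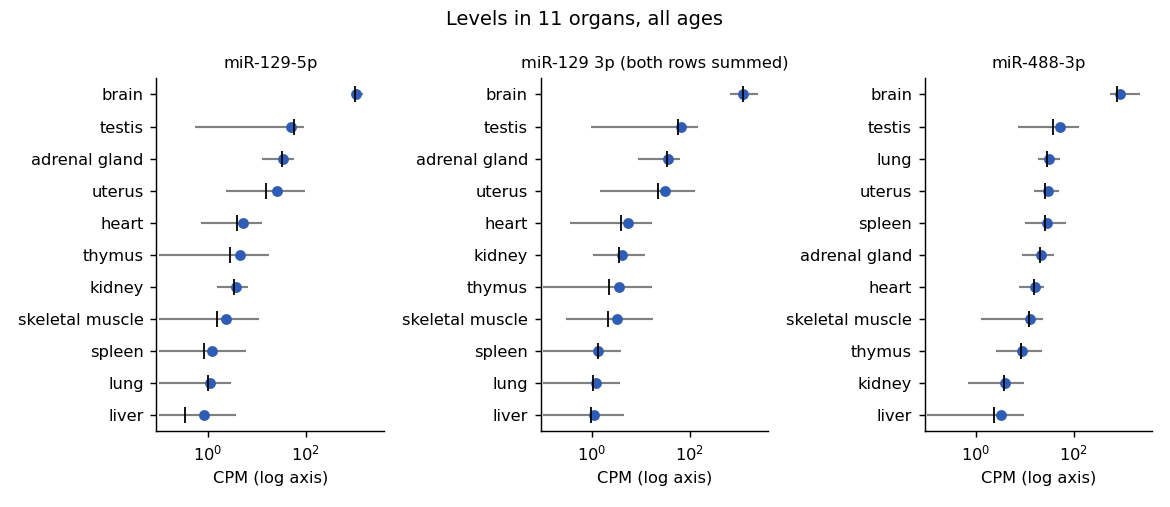
Levels of miR-129-5p, miR-129 3p and miR-488-3p in 11 organs, in CPM on a log axis. Points are means, ticks medians and lines the range over 16 to 32 samples of all ages, with values under 0.1 CPM drawn at 0.1; the brain range lies above that of every other organ in each panel.

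Behind brain, the orders of organs differed between the miRNAs. miR-129-5p was highest in testis (50.7 ± 31.9 CPM, SD, n = 16), adrenal gland (33.8 ± 11.9 CPM, SD, n = 32) and uterus (25.6 ± 27.4 CPM, SD, n = 16). In the 7 other organs it had means of 0.842 CPM (liver) to 5.24 CPM (heart). miR-488-3p followed with testis (52.4 ± 37.6 CPM, SD, n = 16), lung (30.6 ± 9.19 CPM, SD, n = 32), uterus (29.4 ± 11.8 CPM, SD, n = 16), spleen (28.2 ± 14.1 CPM, SD, n = 31) and adrenal gland (21.6 ± 7.04 CPM, SD, n = 32). Its lowest mean was in liver, with 3.24 ± 2.46 CPM (SD, n = 32). Only the step from brain to testis was free of overlap. From testis down, the values of every pair of neighbouring organs overlapped for miR-129-5p, for both 3p rows and for miR-488-3p. Lung and spleen held little miR-129-5p, at 1.13 and 1.21 CPM, beside their miR-488-3p. miR-488-5p was at 0 counts in 8 to 29 samples of each other organ, and 2 samples of all other organs had more than 3 counts.

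Over the 44 groups of organ and age, mean log2(CPM + 1) of miR-129-5p had Pearson's r of 0.993 with miR-129-1-3p, 0.994 with miR-129-2-3p and 0.817 with miR-488-3p. All groups share the contrast of brain with the rest, on which the miRNAs were selected, and the values are a description. Among all miRNAs outside the 5, miR-135a-5p (0.893), miR-325-3p (0.889), miR-7b (0.883), miR-384-5p (0.880) and miR-344a-3p (0.877) had the highest r with miR-129-5p. For miR-488-3p these were miR-879-3p (0.923), miR-879-5p (0.913), miR-338-5p (0.873), miR-760-3p (0.869) and miR-132-5p (0.866). The lists had no miRNA in common. Each of the 10 miRNAs had its highest organ mean in brain.

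The question of the age groups is how the brain levels differ from the juvenile to the aged rat. Between week 2 and week 6, miR-129 rose in brain and miR-488 fell. miR-129-5p was between 866 and 1121 CPM at week 2, with a median of 1017, and between 1118 and 1326 CPM at week 6, with a median of 1196. The groups touched, as 1 female sample of week 2 reached the lowest week 6 value. miR-129 3p was between 674 and 1054 CPM at week 2, with a median of 778, and between 1189 and 1540 CPM at week 6, with a median of 1330. All 7 samples of week 6 were above all 8 of week 2. The share of all miRNAs with age groups free of overlap is not given, here or in later comparisons. miR-488-3p was between 950 and 2196 CPM at week 2, with a median of 1311, and between 662 and 1041 CPM at week 6, with a median of 783. A single week 6 sample, female replicate 3, lay within the range of week 2. miR-488-5p was between 6.94 and 68.9 CPM at week 2, with a median of 15.5, and between 1.74 and 6.23 CPM at week 6, with a median of 3.20.

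In the edgeR fit of all 616 miRNAs with TMM scaling, all 5 passed an adjusted p of 0.05 between week 6 and week 2. This was the case for 42.9% of all miRNAs, 23.5% higher and 19.3% lower. The log2 fold change was 0.56 ± 0.07 (SE) for miR-129-5p (adjusted p = 3.4e-07, edgeR). It was 1.00 ± 0.10 for miR-129-1-3p (adjusted p = 5.7e-09, edgeR) and 0.98 ± 0.10 for miR-129-2-3p (adjusted p = 7.9e-09, edgeR). With the 3p rows added together it was 0.97 ± 0.11 (adjusted p = 4e-08, edgeR), an alternative chosen after seeing the data. It was -0.51 ± 0.13 for miR-488-3p (adjusted p = 0.0022, edgeR) and -2.26 ± 0.46 for miR-488-5p (adjusted p = 0.00018, edgeR).

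The sequencing lane moved with this comparison. Of the 7 week 6 brain samples, 5 were on lane 8, which held no brain sample of another age. Of these, female replicate 2, has a muscle name for its library in the study's sample table, while a muscle sample has the matching brain name, and its lane was read from that library name. No call of a member between week 6 and week 2 was lost without this sample. With lane as a covariate, the mean week 6 level rested on the 2 week 6 samples of lane 7, as lane 8 held no other age. In that fit miR-129-5p had a log2 fold change of 0.67 (adjusted p = 0.0021, edgeR) and the 3p rows 1.16 and 1.17. miR-488-3p kept its size at -0.56, with an adjusted p of 0.091 (edgeR), and miR-488-5p had -1.60 with an adjusted p of 0.32 (edgeR). All 5 miRNAs passed the threshold between week 104 and week 2 in the fit with lane.

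From week 6 to week 21, changes were smaller and depended on the scaling. miR-129-5p had 933 to 1032 CPM at week 21 (median 963), below every week 6 sample, and miR-488-3p had 539 to 693 CPM (median 607). With TMM scaling neither passed the threshold, at log2 fold changes of -0.14 ± 0.07 (adjusted p = 0.19, edgeR) and -0.23 ± 0.13 (adjusted p = 0.24, edgeR). With library size only, both did, at -0.31 and -0.39 (adjusted p = 0.0053 and 0.0085, edgeR). miR-129 3p had 1090 to 1646 CPM at week 21 (median 1340), a range that included all samples of week 6. miR-488-5p was the only member called with TMM, where 18.5% of all miRNAs were called. It had a log2 fold change of 1.58 ± 0.46 (adjusted p = 0.019, edgeR) and 2.14 to 15.0 CPM at week 21. Without male week 6 replicate 1 or without male week 6 replicate 2 its adjusted p was 0.058 (edgeR), and with lane as a covariate 0.85.

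No member passed the threshold between week 21 and week 104, where 2.92% of all miRNAs did. miR-129-5p had 909 to 1463 CPM at week 104 (median 977) and a log2 fold change of 0.05 ± 0.07 from week 21. miR-488-3p had 629 to 779 CPM (median 689) and 0.16 ± 0.13, and the 3p rows had -0.02 ± 0.10 and -0.01 ± 0.10. Of the members, miR-488-5p had the smallest unadjusted p at 0.046, and its adjusted p was 0.29 (edgeR).

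The highest miR-129 sample of all was female week 104, replicate 4, with 1463 CPM of miR-129-5p and 2477 CPM of miR-129 3p. The other 7 brain samples of week 104 had 909 to 1071 and 1041 to 1359 CPM. This library had the lowest total of the brain samples, 1164462 counts, and its miR-488-3p level of 629 CPM was the lowest of its age. The study notes a low share of miRNA among the reads of this library, and its sample table lists more sequenced reads for it than for any other brain library kept. The part of this in the miRNA levels was not tested. Without it, the log2 fold changes of the 3p rows between week 104 and week 2 were 0.97 and 0.96, and both were still called.

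Between week 2 and week 104, all 5 members passed the threshold in the TMM fit, as did 54.7% of all miRNAs, 28.7% higher and 26% lower. miR-129-1-3p and miR-129-2-3p rose, by log2 fold changes of 1.16 ± 0.10 and 1.14 ± 0.10 (adjusted p = 7.6e-11 and 9.4e-11, edgeR). miR-129-5p rose by 0.47 ± 0.07 (adjusted p = 2e-06, edgeR). miR-488-3p fell by 0.58 on the log2 scale (SE 0.13, adjusted p = 0.00028, edgeR), and all 8 samples of week 104 were below all 8 of week 2. miR-488-5p fell by 1.59 (SE 0.43, adjusted p = 0.0025, edgeR).

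The rise of miR-129-5p rested on the scaling. TMM factors of the brain samples had means of 1.22 at week 2 (SD 0.086), 1.01 at week 6 (SD 0.060), 0.896 at week 21 (SD 0.050) and 0.917 at week 104 (SD 0.095). Against library size alone, TMM therefore moved the median log2 fold change of all miRNAs from -0.33 to 0.07 between week 104 and week 2, and from -0.25 to 0.00068 between week 6 and week 2. With library size only, miR-129-5p had a log2 fold change of 0.06 (adjusted p = 0.52, edgeR) between week 104 and week 2, as its mean was 992 ± 84.3 CPM at week 2 and 1036 ± 179 CPM at week 104 (SD, n = 8 each). The 3p rows at 0.75 and 0.73, miR-488-3p at -0.999 and miR-488-5p at -2.02 passed the threshold in that fit too. Between week 6 and week 2 all 5 passed it, with miR-129-5p at 0.28. The split of calls over all miRNAs also moved, from 145 higher and 119 lower to 82 higher and 197 lower between week 6 and week 2. Between week 104 and week 2 it moved from 177 and 160 to 91 and 248, and between week 21 and week 6 from 53 and 61 to 30 and 118.

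**Figure D2:**
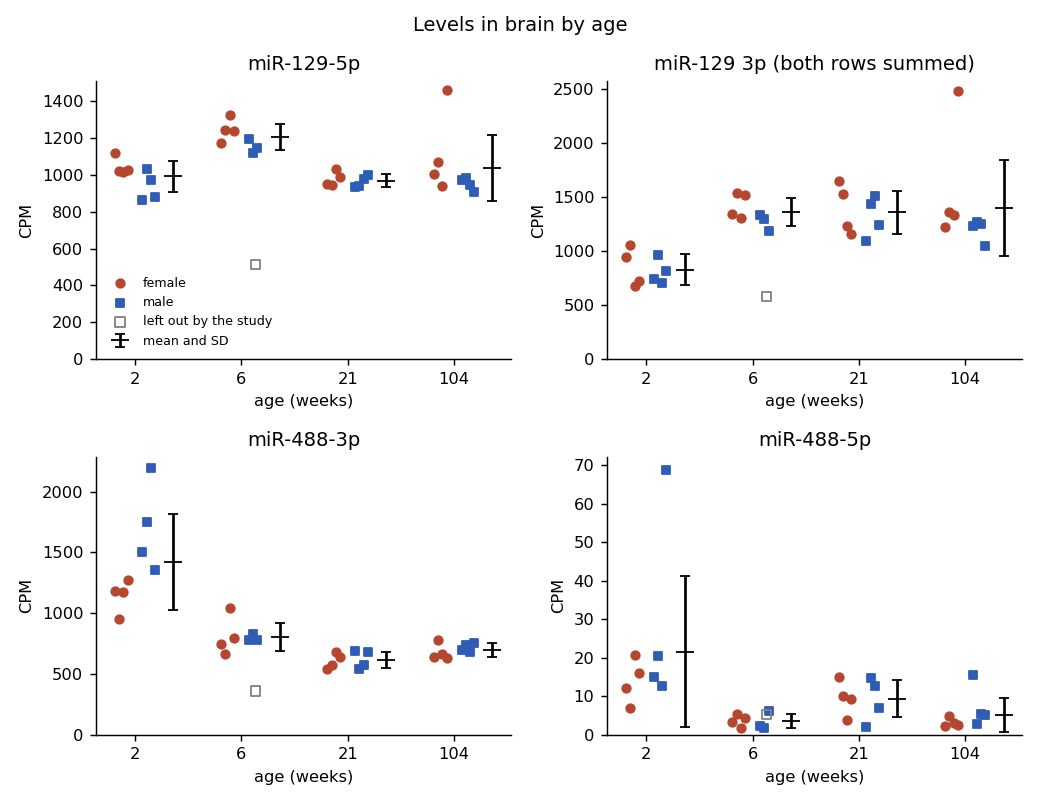
Levels of miR-129-5p, miR-129 3p, miR-488-3p and miR-488-5p in single brain samples by age, in CPM, with circles for female and squares for male samples. Horizontal marks with bars are mean and SD of the 7 or 8 samples kept; the open square is the male week 6 sample that the study left out, at 513 CPM of miR-129-5p and 360 CPM of miR-488-3p.

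**Figure D3:**
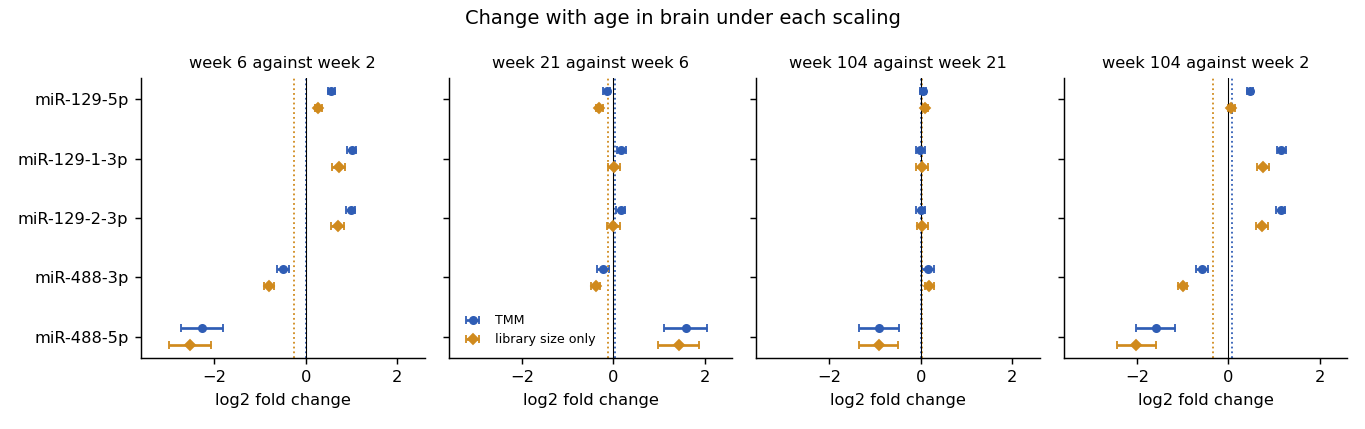
Log2 fold changes of the 5 members between ages in brain, with SE, under TMM scaling (circles) and library size only (diamonds). Dotted lines are the medians of all 616 miRNAs under each scaling; miR-129-5p at week 104 against week 2 lay at 0.47 with TMM and at 0.06 with library size only.

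The ratio between arms compares reads within a library and does not depend on the scaling. It is a ratio of reads, not of molecules. The ratio of miR-129-5p to miR-129 3p reads was 1.23 ± 0.192 (SD, n = 8) at week 2, with a range of 0.969 to 1.51. The later means were 0.892 for week 6 (SD 0.0764, n = 7), 0.731 for week 21 (SD 0.118, n = 8) and 0.763 for week 104 (SD 0.0848, n = 8). Only 1 sample of week 2, female replicate 2, was below 1, and 1 of the 23 later samples was above 1. On the log2 scale the mean fell by 0.45 between week 2 and week 6 (exact permutation test, two-sided, p = 0.00062, adjusted p = 0.0056 over 9 tests). It fell by 0.30 between week 6 and week 21 (exact permutation test, two-sided, p = 0.011, adjusted p = 0.024). That step had an adjusted p of 0.052 (exact permutation test) without female week 6 replicate 3 or without male week 6 replicate 4. From week 21 to week 104 it differed by 0.07 (exact permutation test, two-sided, adjusted p = 0.50). The 3p arm thus gained on the 5p arm after week 2.

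For miR-488, the 3p arm held nearly all reads. The ratio of miR-488-3p to miR-488-5p had medians of 89.8 at week 2, 225 at week 6, 62.2 at week 21 and 182 at week 104. The log2 ratio rose by 1.58 between week 2 and week 6 (exact permutation test, two-sided, p = 0.0031, adjusted p = 0.014) and fell by 1.65 between week 6 and week 21 (exact permutation test, two-sided, p = 0.0093, adjusted p = 0.024). The step from week 21 to week 104 was 1.04 (exact permutation test, two-sided, adjusted p = 0.093), and 1.33 without male week 21 replicate 1 (exact permutation test, adjusted p = 0.020). The last step was also past the threshold without male week 104 replicate 1 (exact permutation test, adjusted p = 0.025), and the step before it was not without female week 6 replicate 3, at -1.45 (exact permutation test, adjusted p = 0.052). These ratios rest on 3 to 112 counts of miR-488-5p. The ratio tests had no term for lane, although both steps at week 6 use the samples of lane 8. On lane 7, which held brain samples of 3 ages, the ratio was 171 in the week 2 sample, 543 and 122 in the week 6 samples and 155 in the week 104 sample, with no clear order by age. The miR-129 ratio on lane 7 was 1.39 in the week 2 sample, 1.02 and 0.967 in the week 6 samples and 0.788 in the week 104 sample. All 5 week 6 samples of lane 8 had lower miR-129 ratios than those of lane 7, at 0.809 to 0.899. The part of lane in these ratios was not tested. The ratio of miR-129-1-3p to miR-129-2-3p was 0.982 to 1.01 at the 4 ages, with an adjusted p of 0.50 (exact permutation test) in each of its 3 comparisons.

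**Figure D4:**
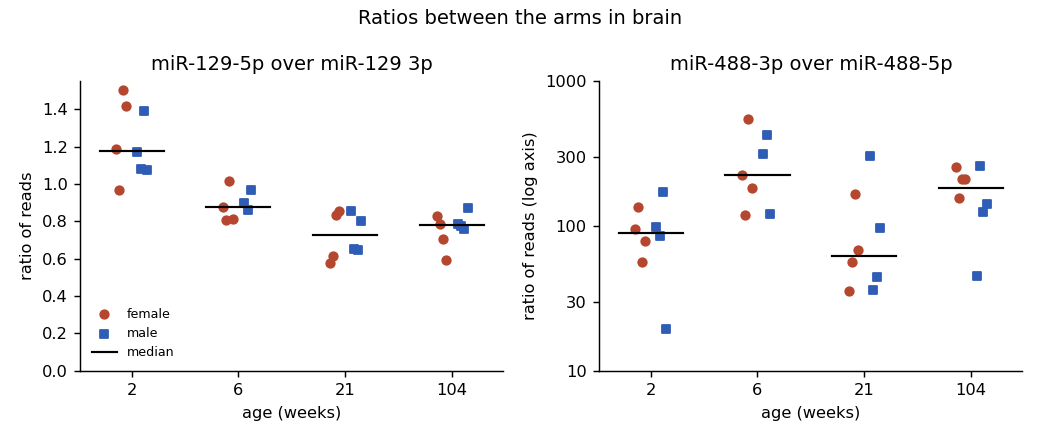
Ratios of reads between arms in single brain samples by age, for miR-129-5p over miR-129 3p on a linear axis and miR-488-3p over miR-488-5p on a log axis. Circles are female, squares male samples and lines medians; the miR-129 ratio had medians of 1.18, 0.876, 0.729 and 0.781 at weeks 2, 6, 21 and 104.

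Summed over all samples, the ratio of miR-129-5p to miR-129 3p reads was 0.836 in brain, 0.840 in testis, 0.807 in uterus and 0.955 in adrenal gland, the organs with the most reads of miR-129. The ratio of miR-488-3p to miR-488-5p reads was 92.4 in brain, and the other organs had at most 18 reads of miR-488-5p each.

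Between the sexes, no member passed the threshold in brain, where 0.325% of all miRNAs did. miR-129-5p was lower in male than in female samples by a log2 difference of 0.12 (SE 0.05), with an unadjusted p of 0.031 and an adjusted p of 0.44 (edgeR). The 3p rows were lower by 0.16 each (SE 0.07, adjusted p = 0.45 and 0.44, edgeR), and miR-488-3p was higher by 0.17 (SE 0.09, adjusted p = 0.57, edgeR). The interaction of sex with week 104 against week 2 was called for no member and for 0.974% of all miRNAs. It was -0.23 ± 0.25 (SE) for miR-488-3p (adjusted p = 0.78, edgeR) and 0.20 ± 0.14 for miR-129-5p (adjusted p = 0.68, edgeR). At week 2 alone, the 4 male samples had 1352 to 2196 CPM of miR-488-3p and the 4 female samples 950 to 1270 CPM. At the other 3 ages male and female samples overlapped. A sex difference within single ages was not tested.

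Markers of brain cell types were set beside the members, in lists chosen with earlier results of these data known. The neuronal list of 14 miRNAs, which includes miR-124, miR-9a and miR-128, had a mean sum of 126054 CPM at week 2 (SD 14081), 105357 CPM at week 6 (SD 6969), 90936 CPM at week 21 (SD 7779) and 86575 CPM at week 104 (SD 8587). These sums are CPM without TMM, whose factors had means of 1.22 at week 2 and 0.917 at week 104. Scaling by TMM would lower the week 2 sum and raise the week 104 sum, so the size of the fall depends on the scaling. Sums scaled by TMM were not calculated. In the TMM fit between week 2 and week 6, 6 of the 14 rose and 3 fell, beside 23.5% and 19.3% of all miRNAs. The median log2 fold change of the 14 was 0.19 beside 0.00068 for all miRNAs. miR-132-3p and miR-212-3p, from a cluster induced by neuronal activity, rose by 1.42 and 1.39, and miR-124-3p, a neuron-enriched miRNA, by 0.89. miR-323-3p, from the imprinted Dlk1-Dio3 cluster, fell by 0.94 on the log2 scale. Between week 2 and week 104, 6 of the 14 rose and 6 fell, beside 28.7% and 26% of all miRNAs. The lowest sum in any brain sample was 75973 CPM, and the highest in a sample of another organ was 13568 CPM.

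The oligodendrocyte and myelin list rose from week 2 to week 6 and from week 2 to week 104, as did the miR-129 rows. All 4 of its miRNAs were called in the comparison of week 6 with week 2 (median log2 fold change 0.74) and in that of week 104 with week 2 (median 1.09, beside 0.07 for all miRNAs). Of all miRNAs, 42.9% and 54.7% were called in these comparisons. miR-338-3p, which promotes oligodendrocyte differentiation, rose by 2.54 and 3.26 in these comparisons, and miR-219a-5p by 0.58 and 1.03. Between week 21 and week 6, miR-219a-2-3p fell by 0.36 on the log2 scale and miR-338-3p rose by 0.36. The interaction of sex with week 104 against week 2 was called for miR-338-3p (1.48) and miR-219a-2-3p (0.89), but for no miR-129 row. The list summed to 2482 ± 756 CPM (SD, n = 8) at week 2 and to 7069 ± 869 CPM (SD, n = 8) at week 104. The share of glia in the levels of miR-129 and miR-488 was not tested.

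Between week 6 and week 2, 23.5% of all miRNAs were called higher and 19.3% lower. Of the other lists, the choroid plexus and ependyma list had 4 of 6 that rose and 1 that fell. The striated muscle list had 3 of 6 that rose, the red blood cell list 2 of 4, and the white blood cell and microglia list 2 of 5 that rose and 1 that fell. The endothelium list of 2, the liver list of 2 and the pituitary and endocrine list of 3 had none called. Between week 21 and week 6, 3 of the 4 red blood cell miRNAs fell, with miR-451-5p, a product of erythroid cells, down by 1.26 on the log2 scale. Of all 616 miRNAs, 61 were called lower in that comparison.

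Outside brain, age was compared between week 104 and week 2 in each of the 10 organs. The members were called 22 times out of 50 comparisons. These comparisons are not independent, as miR-129-1-3p and miR-129-2-3p split their reads about equally. Both rows were called in heart, kidney, testis, thymus and uterus, and the counts of members given below take them separately. miR-488-5p was at or near the floor in all 10 organs and was called in none. The direction of the calls differed by organ. The background of calls was high in every organ, at 39.6% (spleen) to 59.7% (skeletal muscle) of all miRNAs. In these organs, leaving out a replicate removed every sample of that number, at all ages and in each sex, not a single sample.

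In uterus, 4 of the 5 members rose, where 44.6% of all miRNAs were called. miR-129-5p had 3.55 to 5.14 CPM in the 4 samples of week 2, 2.34 to 29.2 CPM at week 6, 14.2 to 41.3 CPM at week 21 and 23.1 to 96.9 CPM at week 104. All samples of week 104 were above all of week 2. The log2 fold change was 4.58 ± 0.59 (adjusted p = 1.7e-06, edgeR), and 4.42 ± 0.54 and 4.22 ± 0.56 for the 3p rows (adjusted p = 9e-07 and 2.3e-06, edgeR). miR-488-3p had a log2 fold change of 1.41 ± 0.21 (adjusted p = 1e-05, edgeR), and of 0.53 with library size only (adjusted p = 0.14, edgeR), as TMM moved the median of all miRNAs by 0.96 there. Its highest values were at week 21, with 42.3 to 48.6 CPM. The neuronal list summed to 478 ± 194 CPM at week 2 and 191 ± 41.7 CPM at week 104 (SD, n = 4 each, without TMM). The part of neurons in the miR-129 levels of uterus or thymus was not tested.

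In testis, 4 of the 5 were called, where 55.2% of all miRNAs were. miR-129-5p had 38.1 to 50.0 CPM at week 2, 72.6 to 92.5 CPM at week 6, 66.5 to 80.3 CPM at week 21 and 0.542 to 6.50 CPM at week 104. It fell by 2.47 on the log2 scale between week 2 and week 104 (SE 0.39, adjusted p = 3.6e-05, edgeR), and the 3p rows fell by 1.33 and 1.76 (adjusted p = 0.0066 and 0.0016, edgeR). The call for miR-129-1-3p was lost without replicate 3 or without replicate 4 (adjusted p = 0.063 and 0.060, edgeR). miR-488-3p had 30.0 to 36.0 CPM at week 2, 39.5 to 47.8 CPM at week 6, 104 to 128.7 CPM at week 21 and 7.11 to 32.5 CPM at week 104. Its log2 fold change of 0.77 ± 0.27 between week 104 and week 2 (adjusted p = 0.022, edgeR) turned to -0.68 with library size only (adjusted p = 0.085, edgeR). The median of all miRNAs was -0.55 with TMM and -2.06 with library size only, and no direction is given for miR-488-3p. Its adjusted p was also 0.14 without replicate 1 and 0.12 without replicate 2 (edgeR).

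The profile of testis as a whole differed at week 104. miR-34c-5p, a miRNA of male germ cells, was at 131752 ± 9678 CPM (SD, n = 4) at week 21 and at 610 ± 818 CPM (SD, n = 4) at week 104, and miR-449a-5p at 22768 ± 3503 and 89.4 ± 132 CPM (SD, n = 4 each). At week 2 miR-34c-5p was at 468 ± 34.7 CPM (SD, n = 4) and miR-129-5p at 45.6 ± 5.24 CPM (SD, n = 4). The share of germ cells in the members' levels was not tested.

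In thymus, the miR-129 members rose and miR-488-3p was not called, where 58% of all miRNAs were called. miR-129-5p was between 0 and 3.79 CPM at week 2 and between 4.16 and 18.0 CPM at week 104, with at most 51 counts. The log2 fold change was 2.20 ± 0.39 (adjusted p = 1.1e-05, edgeR), and 2.12 ± 0.50 and 2.25 ± 0.55 for the 3p rows (adjusted p = 0.00041 and 0.00071, edgeR). At week 2 the 3p rows had means of 0.805 and 0.701 CPM, with 1 and 0 of the 8 samples above 3 counts. The rises of the 3p rows thus start from the floor. The neuronal list summed to 7164 ± 2046 CPM at week 2 and 1593 ± 1196 CPM at week 104 (SD, n = 8 each). In kidney, 4 members rose, where 43.7% of all miRNAs were called, with miR-129-5p at 0.84 ± 0.21 (adjusted p = 0.0009, edgeR) and miR-488-3p at 0.88 ± 0.23 (adjusted p = 0.0017, edgeR), from means of 3.03 and 3.85 CPM to 4.58 and 6.21 CPM.

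In adrenal gland, the miRNAs went opposite ways, where 45% of all miRNAs were called. miR-488-3p rose by 0.98 ± 0.17 (adjusted p = 1.2e-05, edgeR), from 20.4 ± 5.77 CPM at week 2 to 30.3 ± 5.42 CPM at week 104 (SD, n = 8 each). miR-129-5p fell by 0.48 (SE 0.18, adjusted p = 0.030, edgeR), from 34.7 ± 5.92 CPM at week 2 to 19.3 ± 5.02 CPM at week 104 (SD, n = 8 each), and had its highest mean, 45.6 ± 9.77 CPM (SD, n = 8), at week 6. Without replicate 2, 3 or 4, its adjusted p was 0.080, 0.12 and 0.075 (edgeR). The 3p rows had -0.45 and -0.41 (adjusted p = 0.053 and 0.071, edgeR) and were called with library size only (-0.83 and -0.80) and with DESeq2 (-0.51 and -0.48).

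In heart, the 3 miR-129 rows fell, where 54.7% of all miRNAs were called, with miR-129-5p down by 0.53 (SE 0.23, adjusted p = 0.045, edgeR) from 10.4 ± 1.92 to 4.98 ± 1.90 CPM (SD, n = 8 each). Without replicate 1, 2 or 3, its adjusted p was 0.093, 0.053 and 0.29 (edgeR). The other heart calls were also lost without 1 replicate number, for miR-129-1-3p replicate 1 (adjusted p = 0.14, edgeR) and for miR-129-2-3p replicate 3 (adjusted p = 0.065, edgeR). miR-488-3p was not called in heart at 0.12 ± 0.18 (adjusted p = 0.61, edgeR), and had -0.46 with library size only (adjusted p = 0.015, edgeR). In spleen, miR-488-3p rose by 1.03 ± 0.20 (adjusted p = 0.00013, edgeR), from 25.6 ± 5.89 CPM (SD, n = 8) to 45.1 ± 13.8 CPM (SD, n = 7). The study reports low RNA integrity for the spleen samples of the youngest rats, as an exception among its samples. The part of RNA integrity in this spleen difference was not tested. In lung, where 49.5% of all miRNAs were called, miR-488-3p fell by 0.47 (SE 0.15, adjusted p = 0.0074, edgeR), from 44.3 ± 4.84 to 27.1 ± 4.97 CPM (SD, n = 8 each). Its adjusted p in lung was 0.053 without replicate 2 and 0.11 without replicate 4 (edgeR).

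In liver and skeletal muscle no member was called, where 44.6% and 59.7% of all miRNAs were. In liver all 3 miR-129 rows were at or under 4 counts in every sample. In skeletal muscle, miR-488-3p had means of 19.1 CPM at week 2 and 7.04 CPM at week 104. Its log2 fold change was -0.52 ± 0.29 (adjusted p = 0.12, edgeR), and it was called with library size only (-1.41, adjusted p = 7e-05, edgeR), with DESeq2 (-0.89, adjusted p = 0.0051) and without replicate 1 (-0.82, adjusted p = 0.031, edgeR).

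**Figure D5:**
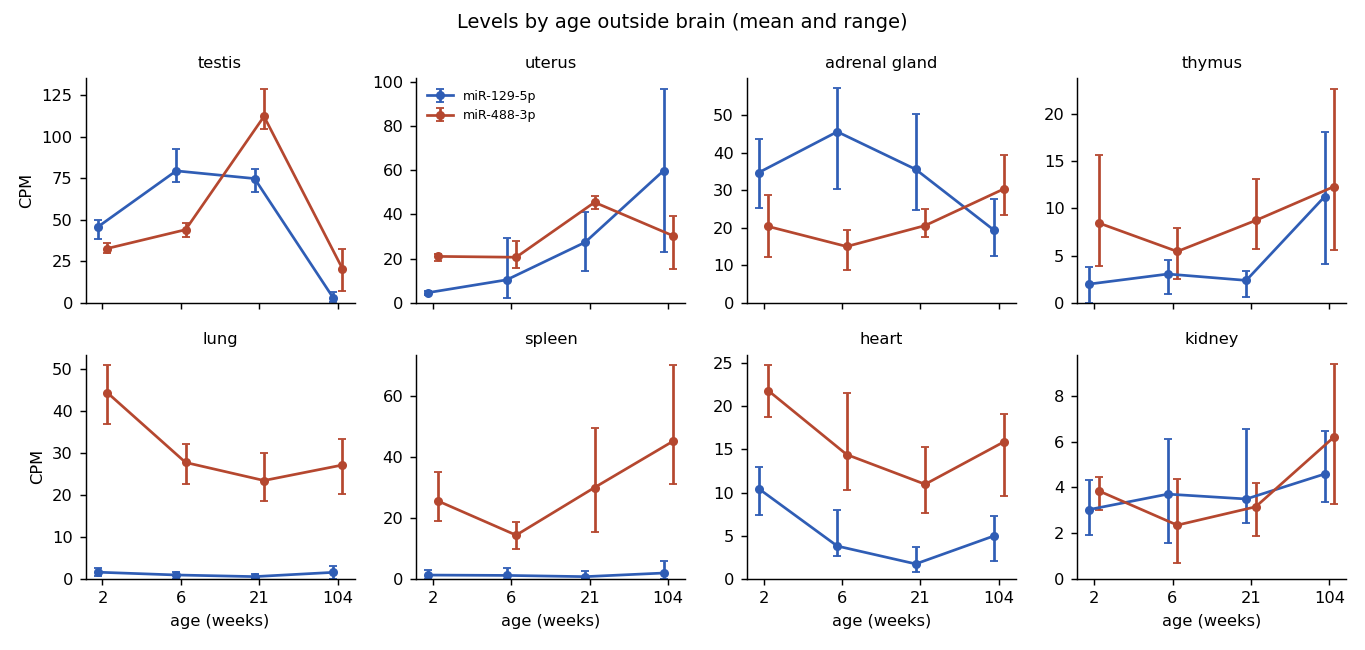
Levels of miR-129-5p and miR-488-3p by age in 8 organs outside brain, in CPM. Points are means and bars the range over 4 samples in testis and uterus and 7 or 8 in the others; miR-129-5p had its lowest testis values and its highest uterus values at week 104.

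The gap between brain and the next organ moved with these changes. For miR-488-3p the brain mean was 32.1 times that of the next organ at week 2 (lung), 18.3 times at week 6 (testis), 5.47 times at week 21 (testis) and 15.5 times at week 104 (spleen). For miR-129-5p it was 21.7, 15.2 and 13.0 times testis at weeks 2, 6 and 21 and 17.3 times uterus at week 104.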

How the data were processed

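Small RNA libraries were sequenced from 320 organ samples, and the authors deposited raw read counts for each miRNA, obtained after adapter removal and alignment to the miRBase sequences, without rare miRNAs. The submitters' processing notes name fastp 0.23.2, Bowtie 1.3.1 and the rn7 build. The counts are not normalized, and 0 columns were left unused. The members and lists were chosen with earlier results of these data known. CPM were calculated from column totals, and the 2 samples that the study removed were left out. A value of 3 counts or fewer was treated as the floor. Totals limit the precision of rare miRNAs, since at the median brain total of 3085224 counts 1 CPM is about 3 reads.

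Age and sex were fitted per organ with edgeR 4.0.16 in R 4.3.3 (quasi-likelihood test, TMM, groups of sex and age, sexes weighted equally, no filter beyond the deposited table), with Benjamini-Hochberg adjustment over 616 miRNAs and a threshold of 0.05. SE was taken from the log2 fold change and the F statistic. Arm ratios used counts + 0.5 on the log2 scale and two-sided exact permutation tests, adjusted over 9. Ratios and levels were calculated in Python 3.11.15 (SciPy 1.17.1, pandas 2.3.3, NumPy 2.4.6). The fit was tested on simulated data for week 6 against week 2 in brain. Lanes came from the study's sample table. No pair of columns was identical, and the 45 pairs of brain replicates differed by at least 14.9 in chi-square per degree of freedom. Alternatives were library size only, DESeq2 1.42.0, a mean count of at least 10, the removed sample kept, lane as a covariate, a replicate block, other pseudocounts, each sex alone and leaving out each brain sample or replicate number. The text names the 5 members, the 5 miRNAs most like miR-129-5p and miR-488-3p by Pearson's r, and of each list up to 4 called miRNAs per brain age comparison with the largest log2 fold change, of which the main ones are given. miR-34c-5p and miR-449a-5p in testis were chosen after their values were seen.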

Additional observations from a re-analysis of the deposited data

Results flagged for a closer look

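In brain, 4 of the 35 groups of 4 samples tested had a sample far from the other 3 by Dixon's criterion, where chance gives about 1 group in 20. Female week 104 replicate 4 had 1227 CPM of miR-129-1-3p beside 599 to 667 CPM in the other 3 samples, and 1250 CPM of miR-129-2-3p beside 619 to 691 CPM. As the 3p rows share their first 19 bases and split their reads about equally, these are counted as 1 observation. Male week 2 replicate 4 had 68.9 CPM of miR-488-5p, from 112 counts, beside 12.6 to 20.5 CPM. Its miR-488-3p level was the lowest of the 4 male samples of its age. Female week 2 replicate 1 had 1121 CPM of miR-129-5p beside 1014 to 1028 CPM.

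The miR-129 rows moved in opposite directions in different organs between week 104 and week 2, with all samples of 1 age above all of the other. The difference between organs was not tested. The share of all miRNAs that separate in this way is not given here. Of all miRNAs, 44.6% (uterus) to 58% (thymus) were called between these ages in the organs named. miR-129-5p had log2 fold changes of 4.58 in uterus and 2.20 in thymus, and of -0.53 in heart and -2.47 in testis. miR-129-1-3p had 4.42 in uterus and -1.33 in testis. miR-129-2-3p had 4.22 in uterus and 1.14 in brain, and -1.03 in heart and -1.76 in testis. Uterus and testis come from different animals of 4 per age, so the organ and the sex cannot be told apart for this pair.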

How the results depend on the processing

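With library size only, miR-129-5p and miR-488-3p were called between week 21 and week 6 in brain, at -0.31 and -0.39, and miR-129-5p was not between week 104 and week 2, at 0.059. In testis miR-488-3p reversed to -0.68. With lane as a covariate, miR-488-3p (-0.56) and miR-488-5p (-1.60) were not called between week 6 and week 2, nor miR-488-5p between week 21 and week 6 (1.03), and the calls over all miRNAs were 110 instead of 264 and 1 instead of 114. Lane 8 held brain samples of week 6 only, so the mean week 6 level in this fit rested on the 2 week 6 samples of lane 7. Whether lane itself or this loss of samples lowered the calls was not tested. The 18 calls between week 104 and week 21 became 33 with DESeq2, 0 with the removed sample kept (edgeR, 79 at an unadjusted p under 0.05) and 11 with lane. The 2 calls for sex became 1 with library size only, 6 with DESeq2, 1 with the removed sample kept and 4 with lane. The 6 calls for sex by age became 2 with library size only, 18 with DESeq2, 12 with a mean count of at least 10 and 3 with lane. None of these was a member. With TMM over all organs, the brain means were 502 (miR-129-5p), 297, 299 (the 3p rows) and 413 CPM (miR-488-3p), with brain still at least 8.05 times the next organ.

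With each sex alone, none of the 4 ratio calls passed the threshold (0 in female and 0 in male samples). With 3 or 4 samples a group, the exact test cannot go below an unadjusted p of 0.057 where week 6 male samples enter. In female samples its lowest possible p is also too high to pass adjustment over 9 tests, unless most of them reach it. The counts of 0 thus decide nothing. In female and male samples, miR-129-5p over 3p changed by -0.52 and -0.37 (week 6 against week 2) and by -0.30 and -0.31 (week 21 against week 6), and miR-488-3p over 5p by 1.39 and 1.80, then by -1.72 and -1.61.

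Leaving out each brain sample in turn gave 72 to 118 calls between week 21 and week 6, 10 to 31 between week 104 and week 21, 0 to 3 for sex, 1 to 9 for sex by age and 2 to 5 ratio calls. miR-488-5p lay between 1.39 and 1.91 between week 21 and week 6. The miR-129 ratio lay between -0.33 and -0.25 for week 21 against week 6, and the miR-488 ratio between -1.94 and -1.45, and between 0.89 and 1.33 for week 104 against week 21. The other brain age calls of the members kept their side and direction in all 31 fits.

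The replicate block gave 270, 117, 20 and 335 calls in the 4 age comparisons and changed no call of a member in brain. Brain samples of the same number come from different rats, so the numbers do not pair animals. Of 105 same-number pairs, 34 had a correlation of deviations over 0.1, and whether they shared processing was not tested.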
